A study of Mus musculus with 36 samples.

Results

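Hours 84 to 96 of a mouse motor neuron differentiation were examined by setting the 3 day 4 libraries against the 3 day 3.5 libraries, which are 6 of the 36 libraries of the mouse time course. The cells were HM1, a line of mouse embryonic stem cells, and both groups had the same history: bFGF, then bFGF with CHIR99021 (an activator of Wnt signalling), SB431542 and DMH1 (inhibitors of TGF-beta and BMP receptors), and from day 0 100 nM retinoic acid with 500 nM SAG, an agonist of Smoothened in the Hedgehog pathway. Both groups therefore carried both agents, there was no untreated group of either time, and the labels give no difference between the groups but time. The medium was changed every day, the hour of harvest after a change is not stated, and the whole course is 1 line. Feeder cells were removed before plating. The titles call the replicates biological. Whether each was a culture of its own is not stated, and a p-value here is read only against the variation among these libraries, some of which may be technical.

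Retinoic acid is made from vitamin A by the retinaldehyde dehydrogenases, binds nuclear receptors that sit on paired half-sites in DNA, and is destroyed by the Cyp26 enzymes, which it induces. In the embryo it posteriorises the neural tube, opens the early Hox genes and favours motor neuron formation. Hedgehog signal from the floor plate sets the ventral domains, in which Olig2 progenitors give motor neurons and Nkx2-2 progenitors give V3 interneurons. With time, spinal progenitors turn from making neurons to making glia, a change in which Sox9 and Nfia take part.

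The 6 libraries held 27079640 to 31348598 counts. Neural identity stood out in both groups: the progenitor gene Sox2 had 181 to 209 TPM at day 4 and 148 to 159 TPM at day 3.5, and the neuronal tubulin gene Tubb3 had 1021 to 1153 TPM at day 4 and 1083 to 1145 TPM at day 3.5 (TPM is a share of transcripts that corrects for gene length). Mitochondrial genes took 0.949% to 1.73% of the counts at day 4 and 1.53% to 1.69% at day 3.5. Replicates of day 4 differed more from each other in counts than those of day 3.5. The chi-square per degree of freedom was 10.9 to 17.7 at day 4 and 3 to 4.38 at day 3.5. By the SD of log2 differences over the more abundant genes the gap was smaller, at 0.135 to 0.158 at day 4 and 0.105 to 0.135 at day 3.5. The RNA was of cells in bulk, so fewer cells of a type and less RNA per cell cannot be told apart anywhere below.

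Over these 12 hours the retinoic acid degrading enzyme genes Cyp26b1 and Cyp26a1 and nearly all replication and mitosis genes listed were lower, while 15 of 17 floor plate genes and 14 of 19 motile cilium genes were higher. Of 17990 genes tested, 7233 (40.2%) were called at an adjusted p under 0.05 by edgeR's quasi-likelihood test with Benjamini-Hochberg adjustment, the test behind every adjusted p below unless another tool is named. In all, 3499 genes (19.4%) were higher at day 4 and 3734 (20.8%) were lower. Large differences were mostly upward, with 548 genes (3.05%) at least 2-fold higher and 69 (0.384%) at least 2-fold lower. The 3 day 4 libraries lay wholly above or wholly below the 3 day 3.5 libraries in 8531 genes (47.4%). The split of the calls depended on the scale, because 48.4% of them were higher in this fit and 75.7% in limma on log2(TPM + 1), where the median of all genes moved to 0.08 (0.01 in the edgeR fit). In log2 CPM (counts scaled to library size) the root mean square difference over genes was 0.43, beside 0.44 for day 3.5 against day 3.

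Cyp26b1, which degrades retinoic acid, had the largest fall among genes of at least 10 CPM in the higher group, leaving out predicted genes. It had 6.69, 6.57 and 6.93 TPM in the day 4 libraries, against 50.2, 54.4 and 49.2 TPM in the day 3.5 libraries. The log2 fold change of Cyp26b1, with its approximate SE, came to -3.04 ± 0.14 (adjusted p = 4.47e-17), and the groups were far apart. Cyp26a1, the related enzyme, had 4.19, 4.45 and 4.15 TPM at day 4, against 10.1, 12.1 and 9.48 TPM at day 3.5 (log2 -1.42 ± 0.13, adjusted p = 4.57e-10). Rarb, a retinoic acid receptor that is itself induced by the ligand, had 29.4, 29.1 and 30.6 TPM at day 4, against 42.4, 45.5 and 43.8 TPM at day 3.5 (log2 -0.67 ± 0.06, adjusted p = 5.49e-11). In both of these genes every day 4 library was below every day 3.5 library.

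The 150 bases before the start sites of these genes are shown because 2 of the 3 hold a DR5 element, the paired half-site that retinoic acid receptors bind, printed in capitals (RefSeq, GRCm38.p6, 5′ to 3′ on the gene's strand). That of Cyp26b1 lies at chr6:84593811-84593960 on the minus strand, that of Cyp26a1 at chr19:37697658-37697807 on the plus strand and that of Rarb at chr14:16575477-16575626 on the minus strand.
Cyp26b1: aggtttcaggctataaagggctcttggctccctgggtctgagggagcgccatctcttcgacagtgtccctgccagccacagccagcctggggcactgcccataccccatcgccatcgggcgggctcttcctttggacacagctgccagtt
Cyp26a1: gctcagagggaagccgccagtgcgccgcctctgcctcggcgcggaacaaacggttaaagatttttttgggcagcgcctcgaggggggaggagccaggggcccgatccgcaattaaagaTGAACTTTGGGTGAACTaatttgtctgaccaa
Rarb: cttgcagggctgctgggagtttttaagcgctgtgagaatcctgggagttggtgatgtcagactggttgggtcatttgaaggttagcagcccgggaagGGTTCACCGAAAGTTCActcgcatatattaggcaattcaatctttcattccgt
The element begins 32 bases before the start site of Cyp26a1, read on the opposite strand, and 53 bases before that of Rarb. Searched on both strands of windows from 250 bases before to 50 after a start, DR5 was found in 32 of 32851 windows (0.0974%), and in 2 of the 18 retinoic acid genes that have a window. These letters are not in the window of Cyp26b1.

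The list of retinoic acid response and metabolism genes had 24 members tested, of which 3 were higher, 11 lower and 10 not called, with a median log2 fold change of -0.17 (all genes 0.01). In limma on log2(TPM + 1) it had 4 higher and 7 lower. Crabp1, a cytosolic retinoic acid binding protein, had 154, 162 and 157 TPM at day 4, against 287, 280 and 278 TPM at day 3.5 (log2 -0.95 ± 0.07, adjusted p = 1.24e-12). Its relative Crabp2 (-0.33, adjusted p = 9.28e-06) and the zinc finger gene Tshz1 (-0.42, adjusted p = 8.09e-10) were lower too. Aldh1a2, which makes retinoic acid, had 37.4, 41.0 and 36.6 TPM at day 4, against 21.7, 16.2 and 19.3 TPM at day 3.5 (log2 0.90 ± 0.10, adjusted p = 1.14e-08). Dhrs3, a retinaldehyde reductase, was at -0.14 ± 0.09 (adjusted p = 0.212), with 26.68, 26.99 and 29.89 TPM at day 4 and 26.4, 30.1 and 27.8 TPM at day 3.5, so its groups overlapped.

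Hoxb5 had the largest fall of the Hox genes listed, at 144, 153 and 145 TPM at day 4 against 264, 254 and 259 TPM at day 3.5 (log2 -0.92 ± 0.09, adjusted p = 4.97e-10). Of the 12 Hox genes of paralogue groups 1 to 4, 0 were higher and 4 lower, against 2 higher and 1 lower in limma on log2(TPM + 1). Of the 15 in groups 5 to 9, 3 were higher and 1, Hoxb5, was lower. Hoxa6, from the same range of the clusters, was higher by 0.96 (adjusted p = 3.48e-05).

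The fall of the Cyp26 genes at day 4 was one of several, since both had gone up and down with the half-day at the earlier times. Over days 1, 1.5, 2, 2.5, 3, 3.5, 4 and 5 the mean of Cyp26b1 was 1.90, 12.8, 3.96, 50.01, 6.43, 51.3, 6.73 and 5.10 TPM. Those of Cyp26a1 were 2.22, 9.90, 4.097, 8.93, 3.4, 10.6, 4.26 and 4.12 TPM. Each half-day was high and each whole day low for both. Hoxb5 climbed through the course, but days 2.5 and 3.5, at 173 and 259 TPM, stood above the whole days after them, at 109 and 147 TPM. Txnip, a glucose-responsive gene that FoxO factors also induce, ran in the opposite sense, at 174, 52.3, 211, 92.5, 116, 60.9, 117 and 120 TPM over the same 8 times.

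**Figure D1:**
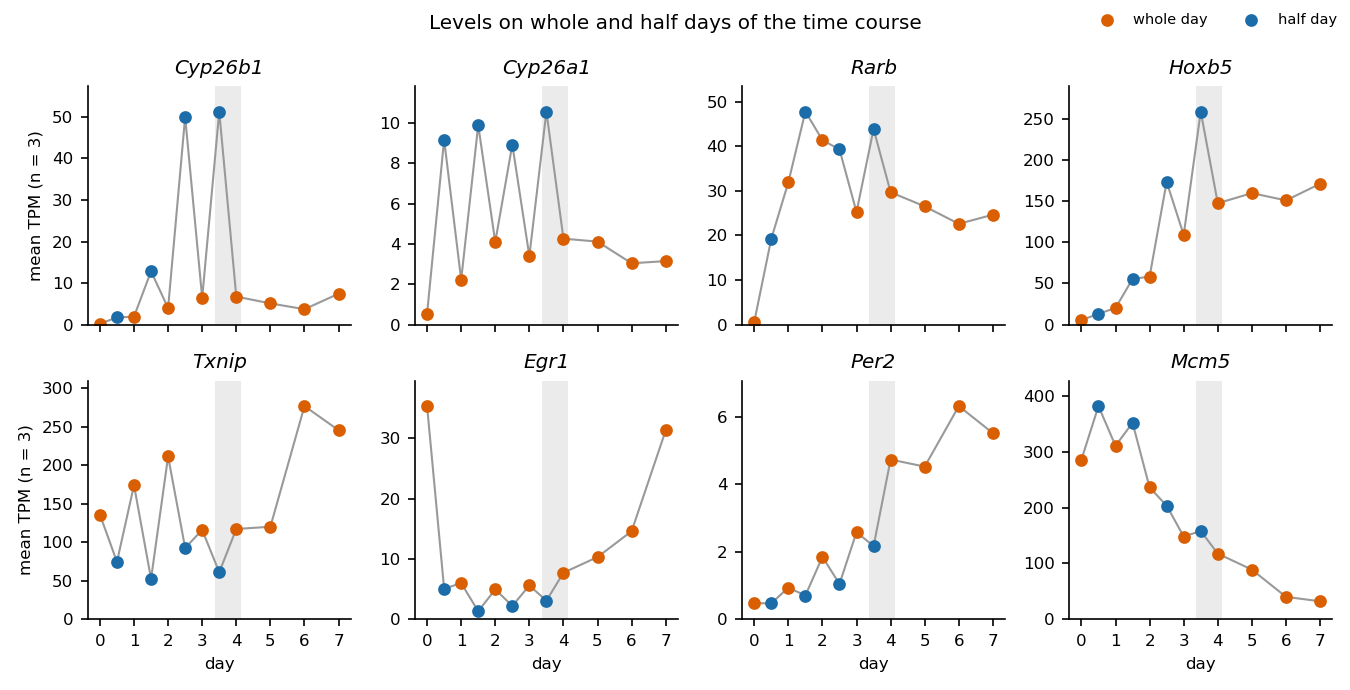
Mean TPM (n = 3, vertical axes from 0) of 8 genes over the 12 time points (days, horizontal axis), with whole days in orange, half-days in blue and the step from day 3.5 to day 4 shaded. Cyp26b1 and Cyp26a1 peak on days 1.5, 2.5 and 3.5, and Txnip and Egr1 dip on those days.

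Libraries of days 1 to 3, none of which enters the day 4 against day 3.5 step, were used to ask how many genes differ between half-days and whole days. The mean of days 1.5 and 2.5 was set against that of the whole days around them, a contrast that cancels a steady trend but not an accelerating one. It called 8757 genes (48.7%), 4696 (26.1%) higher and 4061 (22.6%) lower on half-days. Of the 4925 genes called there and in the day 4 step, 4507 (91.5%) had opposite signs, so that day 4 stood to day 3.5 as the earlier whole days stood to half-days. Those 4507 were 62.3% of the day 4 calls and 51.5% of the half-day calls, and 2584 of them were lower and 1923 higher at day 4. The other 2308 day 4 calls (31.9%) were not called between half-days and whole days, and 418 had the same sign. Across 10314 genes with a mean of at least 10 CPM, the log2 change at day 4 and the half-day difference had a Pearson r of -0.59. Genes are not independent replicates, and the value describes these libraries.

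A stricter count, chosen after seeing the data, asked for mean CPM on days 1.5 and 2.5 each above both neighbouring whole days. It held for 2901 genes (16.1% of those tested), for 1525 (40.8%) of the genes lower at day 4 and for 51 (1.46%) of those higher. Means below both neighbours on both half-days were found in 2609 genes (14.5%), in 1161 (33.2%) of the genes higher at day 4 and in 25 (0.67%) of those lower. Genes with high GC content were slightly higher at day 4, with a median log2 change of 0.04 in the 20% of genes highest in GC and -0.11 in the 20% lowest. With offsets for GC content and length, also chosen after seeing the data, 4802 of 5329 shared calls (90.1%) had opposite signs. Half-days lie 12 hours from whole days, so hour of the day, time since the daily medium change and an alternation in the cells themselves cannot be told apart.

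**Figure D2:**
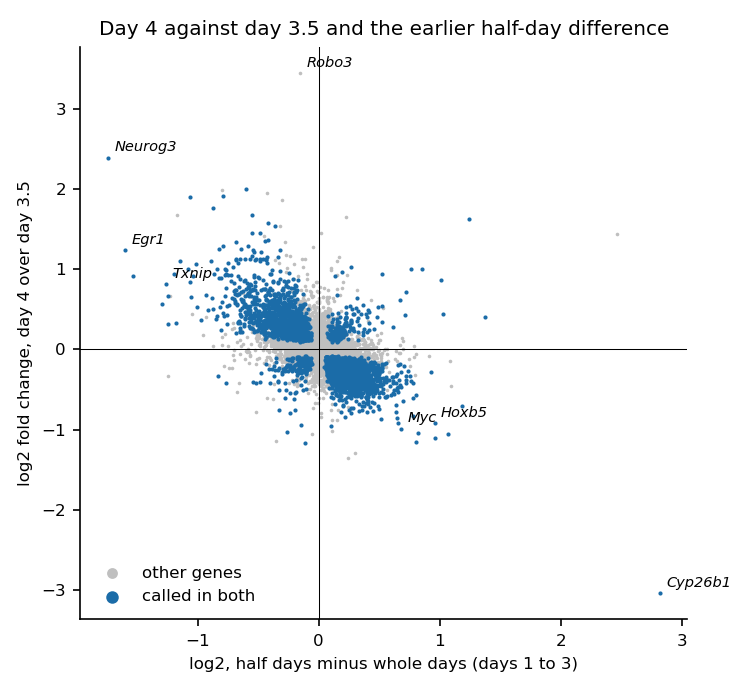
Log2 fold change of day 4 over day 3.5 (vertical) against the log2 difference of half-days minus whole days in days 1 to 3 (horizontal) for genes with a mean of at least 10 CPM, with genes called in both in blue. Most blue points lie in the upper left and lower right, with Cyp26b1 at -3.04 and 2.82 farthest out.

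Among genes called in both with opposite sign and with at least 10 CPM in the higher group, leaving out predicted genes, the largest falls after Cyp26b1 were Phox2a, a visceral motor neuron factor (-1.16), Arg1, the arginase gene (-1.10), the kinase gene Stk32a (-1.06), the zinc and iron transporter gene Slc39a14 (-1.05) and Myc, a transcription factor of cell growth (-0.99). Of the largest falls outside that set, Prkg1, a cyclic GMP dependent kinase gene, was at -1.19 (adjusted p = 3.01e-09) and Fam196a at -1.04 (adjusted p = 1.41e-08). Hist1h2ai, a histone gene, was at -1.56 ± 0.61 (adjusted p = 0.0391), and its call was lost in DESeq2 (adjusted p = 0.201) and without day 3.5 replicate 1 or 2 (0.0699 and 0.137) or day 4 replicate 2 or 3 (0.0893 and 0.126). Slc39a14 had 29.9, 29.4 and 34.4 TPM at day 4, against 63.5, 61.6 and 59.7 TPM at day 3.5. Over days 1, 1.5, 2, 2.5 and 3 its means were 27.8, 70.2, 50.4, 75.2 and 43.2 TPM, so it was high on both half-days. The largest rises under the same limits were Neurog3 (2.39), the incretin receptor gene Gipr (2.28), Ccdc3 (1.91), the calcium pump gene Atp2b4 (1.68), the channel gene Pkd2l1 (1.68) and the collagen gene Col13a1 (1.68). In Neurog3 and Gipr the half-day sign rests on a late onset, because Neurog3 had 0.327, 0.0533, 0.183, 0.613 and 10.9 TPM and Gipr 0.227, 0.263, 0.400, 0.397 and 1.94 TPM over days 1, 1.5, 2, 2.5 and 3.

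Signalling and stress lists differed from each other. FGF and ERK response genes had 4 of 21 higher and 4 lower, near the shares of all genes, and integrated stress response genes had 1 of 22 higher and 7 lower (5 and 4 in limma on log2(TPM + 1)). FoxO and growth factor withdrawal genes, which cells switch on when insulin-type signalling falls, had 11 of 19 higher and 0 lower at day 4 (median 0.33), and 2 higher and 11 lower on half-days. Txnip had 128, 115 and 108 TPM at day 4, against 60.0, 62.4 and 60.2 TPM at day 3.5 (log2 0.82 ± 0.09, adjusted p = 1.8e-08). Pik3ip1, an inhibitor of PI3 kinase, rose by 0.92 (adjusted p = 3.23e-07) and Igfbp5, an insulin-like growth factor binding protein, by 0.75 (adjusted p = 1.2e-09).

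Immediate early genes, which are transcribed within minutes of a stimulus, had 10 of 27 higher and 1 lower (median 0.23), and 2 higher and 14 lower on half-days. Egr1, a zinc finger factor, had 7.95, 8.71 and 6.43 TPM at day 4, against 2.42, 3.68 and 3.07 TPM at day 3.5 (log2 1.24 ± 0.15, adjusted p = 6.8e-08). Fos, a subunit of AP-1, rose by 0.92 ± 0.19 (adjusted p = 0.000269) and Nr4a3, an orphan nuclear receptor, by 0.94 ± 0.09 (adjusted p = 7.28e-10). Myc was the 1 that fell, to 8.79, 11.2 and 10.7 TPM at day 4, against 17.8, 20.3 and 16.6 TPM at day 3.5 (adjusted p = 7.35e-10).

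Circadian clock genes had 11 of 19 higher and 2 lower (median 0.35), and in limma on log2(TPM + 1) 10 higher and 0 lower. Per2, a repressor of the clock loop, had 4.64, 5.74 and 3.83 TPM at day 4, against 2.17, 1.93 and 2.40 TPM at day 3.5 (log2 0.88 ± 0.11, adjusted p = 5.19e-08). Dbp, a clock output factor, rose by 0.79 ± 0.13 (adjusted p = 1.13e-05) and Per3 by 0.62 ± 0.11 (adjusted p = 3.36e-05). On half-days 4 clock genes were higher and 10 lower, with Per2 at -0.93, Dbp at -0.51 and Per3 at -0.44.

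Cell cycle genes fell almost as a block. Of 34 DNA replication and S phase genes 33 were lower and 0 higher, with a median of -0.41, and Orc1, a subunit of the origin recognition complex, was at -0.12 (adjusted p = 0.274). Pcna, the polymerase clamp, had 172, 203 and 188 TPM at day 4, against 238, 263 and 252 TPM at day 3.5 (log2 -0.59 ± 0.06, adjusted p = 4.93e-09). Mcm5, a subunit of the replicative helicase (-0.57), Rrm2, of ribonucleotide reductase (-0.60), and Tyms, thymidylate synthase (-0.58), fell by similar amounts. On half-days 27 of the 34 were higher and 1 lower. Day 5 against day 4 gave 31 lower and 0 higher, while day 3.5 against day 3 gave 6 higher and 5 lower (all genes 21.2% higher and 16.8% lower at day 5, and 21.0% higher and 19.8% lower at day 3.5).

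Mitosis genes had 27 of 30 lower and 0 higher, with a median of -0.29, and in limma on log2(TPM + 1) 15 lower and 1 higher. Half-days had 20 of the 30 higher and 3 lower. Day 3.5 against day 3 gave 19 higher and 1 lower (median 0.18), so this fall followed a rise. Day 5 against day 4 gave 0 higher and 26 lower. Aurka, a mitotic kinase, had 53.67, 53.01 and 63.79 TPM at day 4, against 76.6, 78.3 and 75.8 TPM at day 3.5 (log2 -0.55 ± 0.06, adjusted p = 2.57e-08). Plk1, another mitotic kinase, was at -0.46 (adjusted p = 7.96e-07) and Ccna2, cyclin A2, at -0.36 (adjusted p = 1.38e-06). Ccnb2, a cyclin (0.11, adjusted p = 0.0607), Cenpe, a kinetochore motor (-0.16, adjusted p = 0.057), and Mki67, the gene of the Ki-67 antigen (-0.05, adjusted p = 0.685), did not pass. Mki67 had 79.5, 60.9 and 80.3 TPM at day 4 and 73.3, 68.7 and 69.8 TPM at day 3.5, so its groups overlapped. Ccnb2 passed as higher in DESeq2 (0.13, adjusted p = 0.0179) and in limma on log2(TPM + 1) (0.22, adjusted p = 0.000279).

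The 150 bases before the start are shown for the 3 mitosis genes with the smallest adjusted p among 8 that hold the cell cycle homology region (CHR, TTTGAA, on either strand) in that stretch, with the element in capitals (RefSeq, GRCm38.p6). They are Ube2c, which charges ubiquitin for the anaphase promoting complex (chr2:164769779-164769928, plus strand), Cdc20, the activator of that complex (chr4:118437344-118437493, minus strand), and Prc1, which bundles the midzone of the spindle (chr7:80294326-80294475, plus strand).
Ube2c: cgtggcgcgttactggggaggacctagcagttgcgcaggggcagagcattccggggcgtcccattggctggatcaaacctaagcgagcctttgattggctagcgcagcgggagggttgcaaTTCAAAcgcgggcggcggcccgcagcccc
Cdc20: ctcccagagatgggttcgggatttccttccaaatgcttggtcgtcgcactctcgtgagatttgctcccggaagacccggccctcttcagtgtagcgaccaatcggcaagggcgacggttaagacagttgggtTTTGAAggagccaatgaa
Prc1: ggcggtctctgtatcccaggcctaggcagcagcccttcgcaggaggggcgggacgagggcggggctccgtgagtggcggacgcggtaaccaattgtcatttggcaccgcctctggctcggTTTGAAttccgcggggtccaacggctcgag
Ube2c was at -0.43, Cdc20 at -0.42 and Prc1 at -0.34 at day 4 (adjusted p 2.78e-06, 8.21e-06 and 5.08e-05). In the windows from 250 bases before to 50 after a start, CHR was found in 19 of 25 mitosis genes, in 4 of 27 replication genes and in 20.2% of all genes with a window. In all, 7 motifs were searched. E2F sites (TTTCCCGC, TTTGGCGC, TTTGGCGG or TTTCGCGC) were in 12 of 27 replication genes, 1 of 25 mitosis genes and 2.7% of all genes, and CCAAT in 18 of 27, 19 of 25 and 41.1%. DR2, the serum response element and the E-box CACGTG were in at most 3 genes of either cell cycle list. No motif spelled out here contains another, and a match is a description of the letters.

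Genes of cell cycle exit had 6 of 12 higher and 2 lower. Cdkn1c, a cyclin-dependent kinase inhibitor of neurons leaving the cycle, had 338, 385 and 316 TPM at day 4, against 170, 165 and 170 TPM at day 3.5 (log2 0.97 ± 0.08, adjusted p = 4.41e-11). Cdkn1b rose by 0.22 (adjusted p = 0.000679). Cdkn1a, a p53 target, was at 0.14 ± 0.06 (adjusted p = 0.0624) and passed in DESeq2 (0.16, adjusted p = 0.0262) and in limma on log2(TPM + 1) (0.26, adjusted p = 0.000574). Lin28a, an RNA binding protein of early progenitors, fell to 30.9, 31.8 and 34.9 TPM at day 4, against 63.7, 61.4 and 62.5 TPM at day 3.5 (log2 -1.06 ± 0.05, adjusted p = 1.66e-16), and its half-day difference was -0.05 (adjusted p = 0.162). Lin28b, its paralogue, fell by 0.78 on the log2 scale (adjusted p = 2.72e-11).

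**Figure D3:**
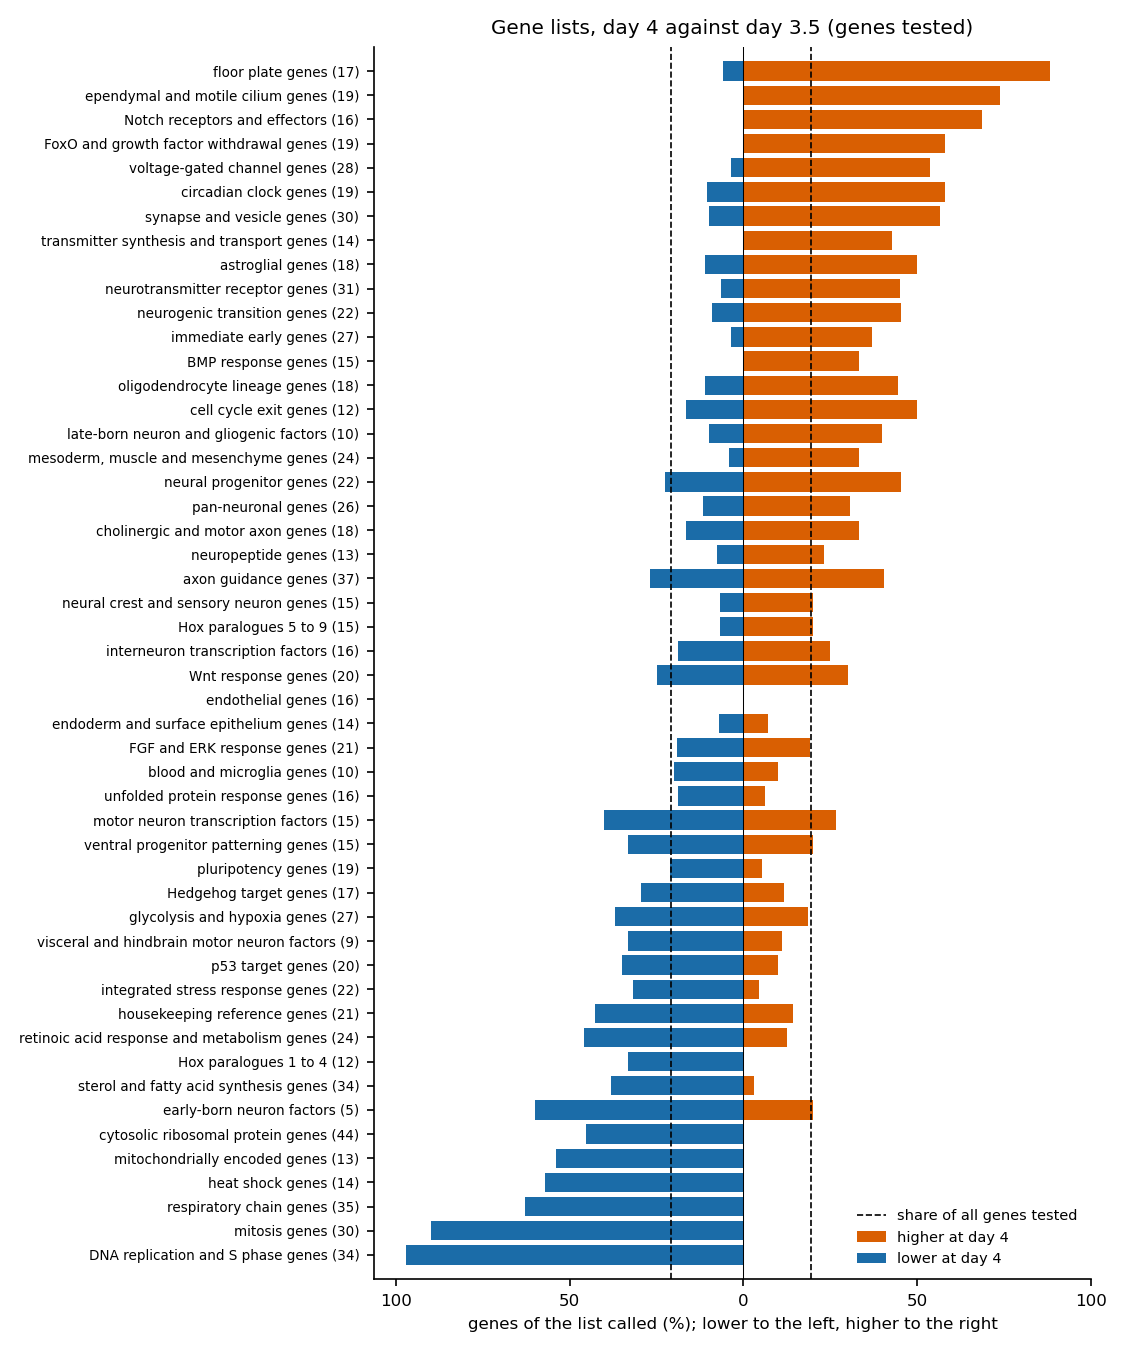
Share of each gene list called higher (orange, right) or lower (blue, left) at day 4, in percent of the members tested (in brackets), with dashed lines at the shares of all genes tested, 19.4% and 20.8%. Floor plate genes head the plot with 15 of 17 higher and replication genes end it with 33 of 34 lower.

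Floor plate genes rose together, 15 of 17 higher and 1 lower, with a median of 0.61. Shh, the Hedgehog ligand, had 218, 213 and 189 TPM at day 4, against 94.9, 106 and 97.1 TPM at day 3.5 (log2 0.94 ± 0.09, adjusted p = 3.15e-10). Foxa2, which specifies the floor plate, had 102, 105 and 91.1 TPM at day 4, against 58.9, 63.2 and 55.8 TPM at day 3.5 (log2 0.61 ± 0.09, adjusted p = 2.55e-06). In both, the lowest day 4 library lay above the highest day 3.5 library. Sulf1, a heparan sulfatase that shapes the Hedgehog signal, rose by 1.25 ± 0.08 (adjusted p = 1.41e-13), Lmx1b, a LIM homeobox factor, by 1.14 ± 0.10 (adjusted p = 1.25e-10) and Spon1, a secreted axon guidance protein, by 0.71 ± 0.05 (adjusted p = 9.52e-12). Nkx2-9, a transient ventral factor, was the 1 that fell (-0.42 ± 0.12, adjusted p = 0.00476), a call lost in limma on log2(TPM + 0.1) (adjusted p = 0.124). On half-days 10 of the 17 were lower and 1 higher. Foxa2 (-0.69), Sulf1 (-0.83), Lmx1b (-0.61) and Spon1 (-0.18) were lower there (adjusted p 7.6e-11, 2.8e-13, 4.48e-07 and 0.000119). So was Nkx2-9 (-0.52, adjusted p = 3.19e-08), while Shh (-0.10, adjusted p = 0.293) was not called. Day 5 against day 4 gave 13 higher and 3 lower.

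Motile cilium genes, which the node, the floor plate and the ependyma use, had 14 of 19 higher and 0 lower, with a median of 1.16 (0.34 in limma on log2(TPM + 1)). Foxj1, the master factor of motile cilia, had 9.92, 11.3 and 8.57 TPM at day 4, against 4.56, 5.03 and 4.47 TPM at day 3.5 (log2 0.97 ± 0.12, adjusted p = 1.32e-07). Rsph1, a radial spoke protein, rose by 1.59 ± 0.22 (adjusted p = 7.08e-07), the axonemal dynein gene Dnah9 by 1.63 ± 0.18 (adjusted p = 1.74e-08) and Ccdc40, which sets the spacing of the axoneme, by 0.63 ± 0.07 (adjusted p = 1.4e-08). Half-days had 1 of the 19 higher and 7 lower, with Rsph1 at -1.1 and Ccdc40 at -0.18 (adjusted p 1.91e-07 and 0.00385). Dnah9 was higher there (1.24, adjusted p = 5.65e-05), and Foxj1 was not called (-0.27, adjusted p = 0.0599). Day 3.5 against day 3 gave 3 higher and 4 lower, and day 5 against day 4 gave 9 higher and 1 lower.

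Interneuron transcription factors had 4 of 16 higher and 3 lower, near the shares of all genes, and Sim1 and Uncx, which mark V3 interneurons, were among the 4. Axon guidance genes had 15 of 37 higher and 10 lower. Robo3, a receptor that lets commissural axons cross the midline, had the largest rise among genes with a symbol and at least 10 CPM in the higher group, leaving out predicted genes, at 6.44, 8.33 and 6.67 TPM at day 4 against 0.91, 0.58 and 0.63 TPM at day 3.5 (log2 3.45 ± 0.17, adjusted p = 2.11e-16). Its half-day difference was -0.15 (adjusted p = 0.615), and its mean was 0.487 TPM at day 3 and 38.7 TPM at day 5. Neurog3, a proneural factor found in V3 progenitors, had 78.34, 82.02 and 58.31 TPM at day 4, against 12.74, 13.98 and 12.17 TPM at day 3.5 (log2 2.39 ± 0.12, adjusted p = 5.12e-16). Sim1, the factor that marks V3 neurons, had 14, 14.2 and 10.56 TPM at day 4, against 5.23, 5.71 and 3.92 TPM at day 3.5 (log2 1.34 ± 0.11, adjusted p = 3.01e-11), and Uncx, a homeobox factor of V3 cells, rose by 1.58 ± 0.12 (adjusted p = 9.57e-12). Nkx2-2, their progenitor factor, rose by 0.60 ± 0.06 (adjusted p = 7.79e-10). Nkx2-2 (-0.2, adjusted p = 0.000262) and Uncx (-0.42, adjusted p = 0.0357) were lower on half-days, as was Neurog3 through its late onset (-1.74, adjusted p = 0.0106). Sim1 was not called there (-0.28, adjusted p = 0.511). The vesicular glutamate transporter genes Slc17a6 (1.84 ± 0.27, adjusted p = 4.26e-06) and Slc17a8 (2.19 ± 0.20, adjusted p = 6.44e-10) rose, each with under 1 TPM in every day 3.5 library.

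**Figure D4:**
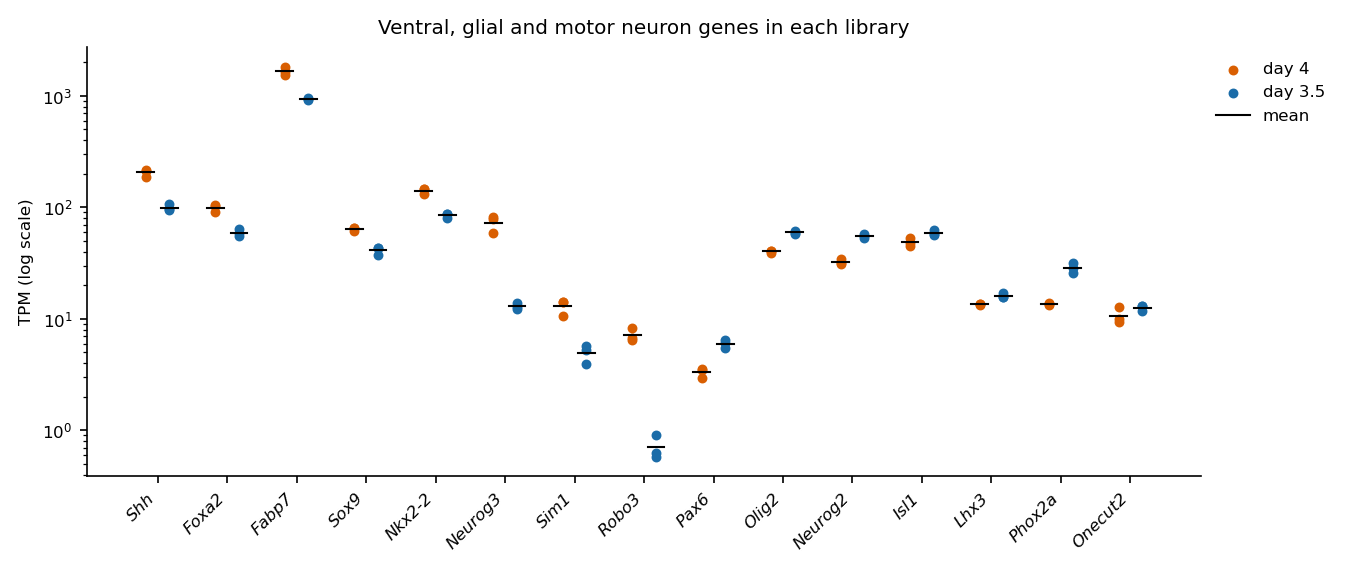
TPM of 15 genes (log scale) in each of the 3 day 4 libraries (orange, left of each pair) and the 3 day 3.5 libraries (blue, right), with black bars at the means. The floor plate, glial and V3 genes plotted lie higher at day 4, Olig2, Neurog2, Pax6 and Phox2a lie lower, and Onecut2 overlaps between the groups.

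Glial lineage genes were more often higher than lower as well, in a culture that still expressed neuronal genes. Fabp7, the radial glial fatty acid binding protein, had 1630, 1830 and 1541 TPM at day 4, against 942, 909 and 947 TPM at day 3.5 (log2 0.73 ± 0.05, adjusted p = 4.53e-12). Sox9 rose by 0.51 ± 0.08 (adjusted p = 1.1e-05) and Nfia by 0.57 ± 0.06 (adjusted p = 1.64e-08). Nfib, its relative, was at 0.65 ± 0.11 (adjusted p = 2.23e-05), a call lost in limma on log2(TPM + 0.1) (adjusted p = 0.109). Sox9, Nfia and Nfib come from a list of 10 late-born neuron and gliogenic factors, of which 4 were higher, 1 lower and 5 not called. Astroglial genes had 9 of 18 higher and 2 lower (median 0.50), among them the glutamate transporter gene Slc1a3 (0.84 ± 0.06, adjusted p = 2.12e-12), Ptprz1, a receptor phosphatase (0.80 ± 0.08, adjusted p = 3.85e-09), and Fgfr3, a receptor of ventral progenitors (0.54 ± 0.06, adjusted p = 5.44e-08). Slc6a11, a GABA transporter gene, was among the 10 largest rises (1.87 ± 0.18, adjusted p = 1.16e-09). Oligodendrocyte lineage genes had 8 of 18 higher and 2 lower. On half-days 1 astroglial gene was higher and 7 were lower, with Slc1a3 at -1.06 and Fgfr3 at -0.57. Nfia was lower there too (-0.37, adjusted p = 5.21e-06), while Fabp7, Sox9, Nfib and Ptprz1 were not called (adjusted p 0.884, 0.377, 0.689 and 0.646). Day 3.5 against day 3 gave 3 astroglial genes higher and 6 lower. Gfap stood at 0 to 0.03 TPM at day 4 and 0 to 0.27 TPM at day 3.5, and Aqp4 at 0.19 to 0.29 TPM at day 4 and 0.11 to 0.29 TPM at day 3.5, so genes of mature astrocytes were near 0.

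Ventral progenitor patterning genes had 3 of 15 higher and 5 lower, and neural progenitor genes had 10 of 22 higher and 5 lower. Olig2, which marks motor neuron progenitors, had 39.1, 40.9 and 40.7 TPM at day 4, against 59.2, 61.7 and 57.9 TPM at day 3.5 (log2 -0.68 ± 0.11, adjusted p = 5.66e-06). Neurog2, the proneural factor of that domain, had 31.6, 34.1 and 31.1 TPM at day 4, against 53.4, 57.4 and 54.7 TPM at day 3.5 (log2 -0.89 ± 0.10, adjusted p = 8.52e-09). Pax6, a factor of more dorsal progenitors, fell by 1.16 (adjusted p = 3.06e-10) and Irx3 by 0.49 (adjusted p = 1.57e-05), both on the log2 scale. Nkx6-1, shared by the ventral domains, was at -0.17 ± 0.05 (adjusted p = 0.0117), and its call was lost in limma on log2(TPM + 1) (adjusted p = 0.503) and without any of 3 libraries. Sox2 rose by 0.23 ± 0.05 (adjusted p = 0.000294). None of Olig2, Neurog2 and Irx3 was called on half-days (adjusted p 0.169, 0.136 and 0.557), and Pax6 was at -0.11 there (adjusted p = 0.0445).

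Notch receptors and effectors, which keep progenitors from differentiating, had 11 of 16 higher and 0 lower (median 0.23), and 11 lower and 1 higher on half-days. Hes1, a Notch target, had 95.6, 90.8 and 87.1 TPM at day 4, against 61.9, 62.6 and 61.2 TPM at day 3.5 (log2 0.41 ± 0.06, adjusted p = 3.76e-07), and the ligand gene Dll1 rose by 0.38 ± 0.05 (adjusted p = 6.88e-08). Hedgehog pathway genes had 2 of 17 higher and 5 lower, or 4 and 3 in limma on log2(TPM + 1). The direct targets Ptch1 (0.06, adjusted p = 0.315), Gli1 (-0.05, adjusted p = 0.763) and Hhip (-0.03, adjusted p = 0.848) did not pass, while Shh rose. Ptch1 passed in limma on log2(TPM + 1) (0.13, adjusted p = 0.0265). Gli3, the main repressor of the pathway, fell by 0.85 on the log2 scale (adjusted p = 6.81e-10).

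Motor neuron factors were split, with 4 of 15 higher and 6 lower, or 3 and 2 in limma on log2(TPM + 1). Isl1 (-0.46 ± 0.09, adjusted p = 7.24e-05), Lhx3 (-0.41 ± 0.09, adjusted p = 0.00053) and Mnx1 (-0.21 ± 0.07, adjusted p = 0.024), the factors that together specify motor neurons, were lower. Isl1 had 45.01, 47.7 and 52.68 TPM at day 4, against 62.3, 56.0 and 57.3 TPM at day 3.5, and the groups did not overlap. The calls of Isl1 and Mnx1 were lost in limma on log2(TPM + 1) (adjusted p 0.0726 and 0.422), and that of Lhx3 in limma on log2(TPM + 0.1) (adjusted p = 0.241). Mnx1 was also lost without day 3.5 replicate 1 (adjusted p = 0.0815) and without day 4 replicate 1 (0.173) or 3 (0.059). Lhx1, of lateral motor neurons and interneurons, rose by 0.63 ± 0.10 (adjusted p = 3.37e-06) and Bcl11b, a zinc finger factor, by 0.76 ± 0.11 (adjusted p = 1.23e-06). On half-days Isl1 (0.68, adjusted p = 6.39e-10) and Lhx3 (0.56, adjusted p = 1.27e-07) were higher and Mnx1 was lower (-0.37, adjusted p = 4.51e-07). Lhx1 and Bcl11b were not called there (adjusted p 0.06 and 0.929).

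Among the products of motor neurons, Slc18a3, the vesicular acetylcholine transporter gene, fell by 0.35 (adjusted p = 2.88e-05) and Ret, the receptor for GDNF, by 0.77 (adjusted p = 2.63e-09). Chat, choline acetyltransferase, was at 0.12 ± 0.11 (adjusted p = 0.418). Prph, peripherin, rose by 0.85 ± 0.07 (adjusted p = 1.01e-10) and Ache, acetylcholinesterase, by 0.81 ± 0.10 (adjusted p = 7.23e-08). Visceral motor neuron factors of the hindbrain had 3 of 9 lower and 1 higher, with Phox2a at 13.3, 13.9 and 13.6 TPM at day 4 against 31.7, 25.8 and 28.8 TPM at day 3.5 (log2 -1.16 ± 0.15, adjusted p = 1.93e-07). Tbx20 was at -0.69 ± 0.20 (adjusted p = 0.00658), a call lost in limma on log2(TPM + 0.1) (adjusted p = 0.126). The ganglionic nicotinic receptor genes Chrna3 (-0.83 ± 0.10, adjusted p = 3.25e-08) and Chrnb4 (-0.91 ± 0.09, adjusted p = 1.98e-09) fell too, and both were called higher on half-days (0.78 and 0.65). Early-born neuron factors had 1 of 5 higher and 3 lower. The 3 were Onecut1 (-0.46), Onecut2 (-0.35) and Onecut3 (-0.56) (adjusted p 1.43e-05, 0.00428 and 0.00262), and all 3 calls were lost in limma on log2(TPM + 0.1) (adjusted p 0.0691, 0.163 and 0.106).

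Many genes of synapses, channels and receptors rose at day 4. Pan-neuronal genes had 8 of 26 higher and 3 lower, with a median of 0 (all genes 19.4% higher and 20.8% lower). In limma on log2(TPM + 1) they had 9 higher and 0 lower. Tubb3 (-0.12, adjusted p = 0.146), Nefl, a neurofilament gene (0.06, adjusted p = 0.513), and Snap25, of the vesicle fusion complex (-0.18, adjusted p = 0.127), did not pass. Map2, of dendrites, rose by 0.39 (adjusted p = 2.7e-05) and Celf4, a neuronal RNA binding protein gene, by 0.61 (adjusted p = 2.83e-07). Synapse and vesicle genes had 17 of 30 higher and 3 lower, with Syn2, a synapsin, at 1.28 ± 0.11 (adjusted p = 1.91e-10). Voltage-gated channel genes had 15 of 28 higher and 1 lower, with the sodium channel gene Scn2a at 0.68 (adjusted p = 1.52e-06) and the potassium channel gene Kcnq3 at 1.44 (adjusted p = 4.57e-09). Neurotransmitter receptor genes had 14 of 31 higher and 2 lower, with the AMPA receptor gene Gria2 at 0.74 (adjusted p = 7.54e-06). Half-days had 6 synapse genes higher and 6 lower, 3 channel genes higher and 10 lower, and 6 receptor genes higher and 5 lower. Syn2 (-0.86, adjusted p = 0.000138) and Kcnq3 (-0.72, adjusted p = 0.00039) were lower there, and Scn2a and Gria2 were not called (adjusted p 0.332 and 0.11). Of the peptides, Cartpt rose by 2.11 ± 0.25 (adjusted p = 3.46e-08) and Sst, somatostatin, fell by 0.78 on the log2 scale (adjusted p = 4.53e-07).

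Metabolic and housekeeping lists had more genes lower than higher, by small amounts, and fewer of them were called lower in limma on log2(TPM + 1), where the sterol and glycolysis lists turned. Respiratory chain genes had 22 of 35 lower and 0 higher (median -0.18), against 11 lower and 3 higher in limma on log2(TPM + 1) (median -0.05). Cytosolic ribosomal protein genes had 20 of 44 lower and 0 higher (median -0.13), against 5 and 2 (median -0.01). Heat shock genes had 8 of 14 lower and 0 higher, against 5 and 0, led by the mitochondrial chaperonin genes Hspe1 (-0.66, adjusted p = 2.09e-11) and Hspd1 (-0.58, adjusted p = 3.57e-10). Sterol and fatty acid synthesis genes had 13 of 34 lower and 1 higher, but 2 lower and 6 higher in limma on log2(TPM + 1). Glycolysis and hypoxia genes had 10 of 27 lower and 5 higher, or 4 and 6, with the glucose transporter gene Slc2a1 at -0.70 (adjusted p = 5.84e-10) and the neuronal enolase gene Eno2 at 1.11 (adjusted p = 1.36e-07). Psat1, of serine synthesis, fell by 0.76 on the log2 scale (adjusted p = 1.27e-11). Mitochondrially encoded genes had 7 of 13 lower and 0 higher (1 lower with offsets for GC content and length). Their summed level ranged from 17000 to 30900 TPM at day 4 and from 26500 to 29200 TPM at day 3.5, so the groups overlapped.

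The neighbouring steps share libraries with this one, so their values are only set side by side. Day 3.5 against day 3 called 7341 genes (40.8%) and day 5 against day 4, a step of 24 hours, called 6832 (38.0%). Cyp26b1 was at 2.99 in day 3.5 against day 3, -3.04 in day 4 against day 3.5 and -0.37 (adjusted p = 0.0594) in day 5 against day 4. Sulf1 was at -0.06 (adjusted p = 0.56), 1.25 and 0.91 over the same 3 steps, and Neurog2 at -0.86, -0.89 and -3.05. Isl1 was at -0.10 (adjusted p = 0.406), -0.46 and -1.21. The difference between the 2 steps of 12 hours, in which day 3.5 libraries enter both, was called in 7466 genes (41.5%). Sez6, a seizure-related membrane protein gene, was at -1.58 in day 3.5 against day 3 and 1.30 in day 4 against day 3.5, and Rgs4, a regulator of G protein signalling, at -2.03 and 0.72. Me1, malic enzyme, was at 1.29 and -0.71, and Unc5c, a netrin receptor gene, at 1.28 and -0.96.

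**Figure D5:**
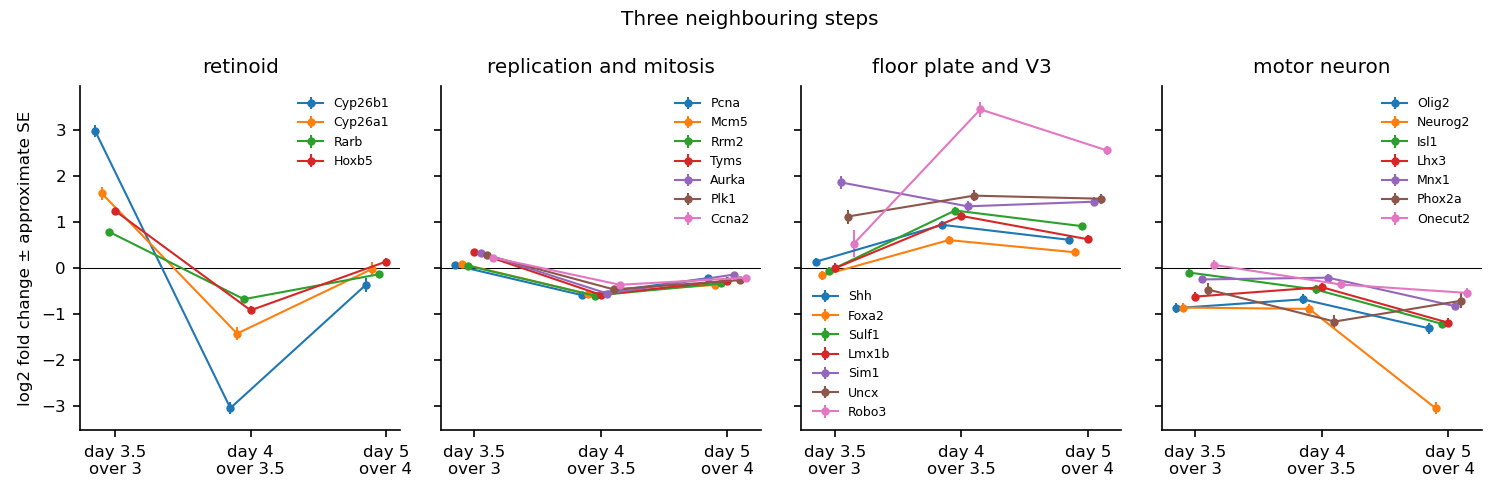
Log2 fold change (± approximate SE, vertical) of day 3.5 over day 3, day 4 over day 3.5 and day 5 over day 4 (horizontal) for 4 groups of genes. The retinoid genes reverse between the first and the second step, with Cyp26b1 at 2.99 and -3.04, and the 7 floor plate and V3 genes plotted were higher again at day 5.

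Markers of other cell types were looked at in the same libraries. The endothelial list had 0 of 16 genes called in either direction, and its summed level was 143 to 158 TPM at day 4 and 129 to 145 TPM at day 3.5. Pecam1 averaged 15.4 ± 2.42 TPM at day 4 and 13.4 ± 0.67 TPM at day 3.5 (SD, n = 3 each), so endothelial transcripts were present in both groups. Blood and microglia genes had 1 of 10 higher and 2 lower, with a sum of 4.28 to 5.42 TPM at day 4 and 4.07 to 5.85 TPM at day 3.5, and Gata1 at 0 in all 6 libraries. Mesoderm, muscle and mesenchyme genes had 8 of 24 higher and 1 lower, with a sum of 178 to 204 TPM at day 4 and 127 to 143 TPM at day 3.5, and Myod1 at 0 in all 6. Their part in the other results was not tested.

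Whether the counting used strand is not given in the sources used here. Of the genes named, Rarb, Hoxb5, Txnip, Pik3ip1, Dbp, Neurog3, Ccdc3, Phox2a, Ccna2, Cdkn1c, Shh, Nkx2-2, Nfia, Irx3, Dll1, Lhx3, Ache, Syn2, Nefl, Map2, Slc2a1, Hspe1, Hspd1, Gli1, Gli3, Lin28a, Ube2c, Dnah9, Pcdh19, Pou3f1, Unc5c and Me1 share an exon stretch with a gene on the other strand, and Onecut1 with one on its own strand, so their values are uncertain to that extent. Aldh1a2, Crabp2, Ccnb2, Cenpe, Orc1, Cdc20 and Prc1 were named after their values were seen.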

How the data were processed

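Per the labels, a Qiagen RNeasy Plus Micro kit gave the RNA and a KAPA mRNA kit the libraries. The authors deposited expected counts and TPM per gene from RSEM on GRCm38, after bcl2fastq 2.20.0, per the submitters' processing notes. For the aligner, annotation release and strand, the value is not given in the sources used. In the deposited expected counts 6.87% of values were not whole, and all were rounded. Of 51912 gene IDs 51633 were matched to a symbol, with 99.925% of counts. The 36 libraries held 26567321 to 35757989 counts.

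All 36 libraries were fitted with edgeR 4.0.16 in R 4.3.3 (quasi-likelihood test, TMM scaling, filterByExpr by time point, 24 residual degrees of freedom). Of 32047 genes with a count, 17990 were tested, with Benjamini-Hochberg adjustment over all of them and a threshold of 0.05. The approximate SE divides the absolute log2 fold change by the square root of F. Alternatives were DESeq2 1.42.0, limma 3.58.1 on log2(TPM + 1) and log2(TPM + 0.1), other scaling, filters and samples, a replicate block, and offsets for GC content and length, added after seeing the data. On simulated data with 17252 genes, the day 4 test found 61.2% of the changes made 1.5-fold. It found 70.1% at 2-fold and 89.4% at 4-fold, and 3.92% of its calls were false. The simulation changed 67 genes by 1.5-fold, 67 by 2-fold and 66 by 4-fold at day 4, up or down at random. That is far fewer than the 40.2% of genes called in the data, so these shares need not carry over.

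Genes were named by a rule: a fixed panel, the largest rises and falls with groups that do not overlap and at least 10 CPM, up to 6 called members per list by adjusted p, and the largest changes of direction and half-day genes. The genes, lists and comparisons were chosen with earlier results of these data known. Some genes are not reported here.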

Additional observations from a re-analysis of the deposited data

Results flagged for a closer look

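The log2 change from day 3.5 to day 4 minus that from day 3 to day 3.5 was listed for 12 genes. They had its largest values in either direction among genes called for it by edgeR's quasi-likelihood test. The call was thus a condition of the choice, as was a level of at least 10 CPM, and predicted genes were left out. The contrast takes the day 3.5 libraries on both sides. It was 2.92 for Robo3 and 2.74 for Gipr. Their first steps, 0.53 and -0.46, did not pass (adjusted p 0.156 and 0.0604), so no reversal is shown for Robo3 or Gipr. The contrast was 2.87 for Sez6, 2.74 for Rgs4, 2.67 for Ccdc3 and 2.26 for Dnaic2. Below 0 it was -6.03 for Cyp26b1, -2.46 for Pcdh19, -2.24 for Unc5c, -2.16 for Hoxb5, -2.0 for Me1 and -1.99 for Pou3f1.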

How the results depend on the processing

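The number of genes called changed by less than 1.5 times in all 5 comparisons under the 87 alternative values computed. For day 4 against day 3.5 it was 6239 to 6725 without 1 library and 6116 to 7670 under the others. Without 1 library, 2989 to 3182 genes were higher, 3215 to 3543 lower, 451 to 560 at least 2-fold higher and 63 to 93 at least 2-fold lower. Genes called lower numbered 1523, 1554 and 1580 in limma on log2(TPM + 0.1), on log2(TPM + 1) and on log2(TPM + 1) with a mean of at least 1 TPM. Those at least 2-fold lower numbered 41, 9 and 10 on the same scales and 142 with no filter on low counts, and those at least 2-fold higher numbered 141 and 150 on the 2 scales of log2(TPM + 1). The median log2 change of all genes was 0.115 in limma on log2(TPM + 0.1) and 0.008 in the edgeR fit, and the pseudocount shrinks the changes of low genes.

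Of 128 genes in the text, 115 were called, and 1692 of their 1725 values under alternatives kept direction and call, 33 lost the call and 0 turned. Among genes that were not called, Gli1 turned to 0.09, 0.08 and 0.08 on the 3 TPM scales and to 0.01 without day 3.5 replicate 2. Hhip turned to 0.07, 0.06 and 0.06 on those scales, to 0.03 without day 3.5 replicate 3 and to 0.09 without day 4 replicate 2. Mki67 turned to 0.05 on all 3 and to 0.07 without day 4 replicate 2. Without 1 library Gli1 ran from -0.1 to 0.01, Hhip from -0.13 to 0.09 and Mki67 from -0.13 to 0.07. The cause was not tested.

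With the replicate number as a block, 7173 genes were called for day 4, 7257 for day 3.5 against day 3, 6762 for day 5 against day 4, 7407 for the difference of steps and 8716 for half-days. Same-numbered day 4 and day 3.5 libraries had correlations of 0.141, 0.225 and -0.105 in their deviations from the group mean. Day 4 replicate 2 correlated best with its own number, and replicates 1 and 3 did not. With 3 libraries in each group these values cannot decide whether the numbers pair the samples.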
